A study of Mus musculus with 9 samples.

Results

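The immunity-related GTPases (IRG genes) were followed in mouse liver after treatment with an agonist antibody to CD40, a receptor of the TNF receptor family on antigen-presenting cells. The 7 genes Irgm1, Irgm2, Igtp, Iigp1, Tgtp1, Tgtp2 and Ifi47 were taken by name from the 24341 gene names of the expression table, and all 7 were found there. The study asked how CD40 activation changes the liver, and mRNA of the whole organ was sequenced from the 3′ end at 48 h (2 days). One group was 3 wild-type C57BL/6 mice given the CD40 antibody FGK45 (anti-CD40 mice 2, 5 and 9), and the other was 6 wild-type C57BL/6 mice given PBS (control mice 3, 4, 7, 8, 11 and 12). The sample labels give neither age nor sex, and the methods describe sex-matched young adults. The methods also state that some mice were left out of the study when the antibody did not lower their blood B cells, and that some of its experiments used animals from a colony that carries Cre under the Pdx promoter, without saying whether these 9 were among them. Levels are FPKM, a count of fragments scaled to library size and to transcript length. In 3′ data the division by length makes levels of different genes hard to compare, so only the same gene was compared between mice, or the ratio of a pair of genes within a mouse.

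IRG proteins are GTPases of the cell's own defence that are made in response to interferons, above all IFN-γ. Effector members such as Irga6 (from Iigp1), Irgb6 (from Tgtp1 and Tgtp2) and Irgd (from Ifi47) gather on the vacuoles in which parasites such as Toxoplasma or bacteria such as Chlamydia live, and help to break them open. The regulatory members Irgm1, Irgm2 and Irgm3 (from Igtp) sit on the cell's own membranes, hold the effectors in an inactive state there, and carry a methionine in place of the usual lysine of the GTP-binding loop.

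After anti-CD40, liver transcripts of 2 regulators, Irgm1 and Igtp, and of 2 effectors, Ifi47 and Tgtp1, rose, by 2.56-fold to 4.80-fold. The third regulator, Irgm2, and the effector Iigp1 did not pass the test, and the 3 anti-CD40 mice all had less Iigp1 than any control. Tgtp2 was too low to be tested. A gene was called where limma gave an adjusted p below 0.05. Of the 6 members tested, 4 were called higher and 0 lower, whereas 23.5% of all 13807 genes tested were called higher and 21.7% lower. The median log2 fold change of the tested members was 1.42, and that of all genes tested was 0.0056. The test was run on log2(FPKM + 0.1), leaving out genes whose mean FPKM was below 0.1, and this scale understates the change of low genes. Tgtp1 reached that mean only through the anti-CD40 mice, so its place among the tested members was not independent of its difference.

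**Figure D1:**
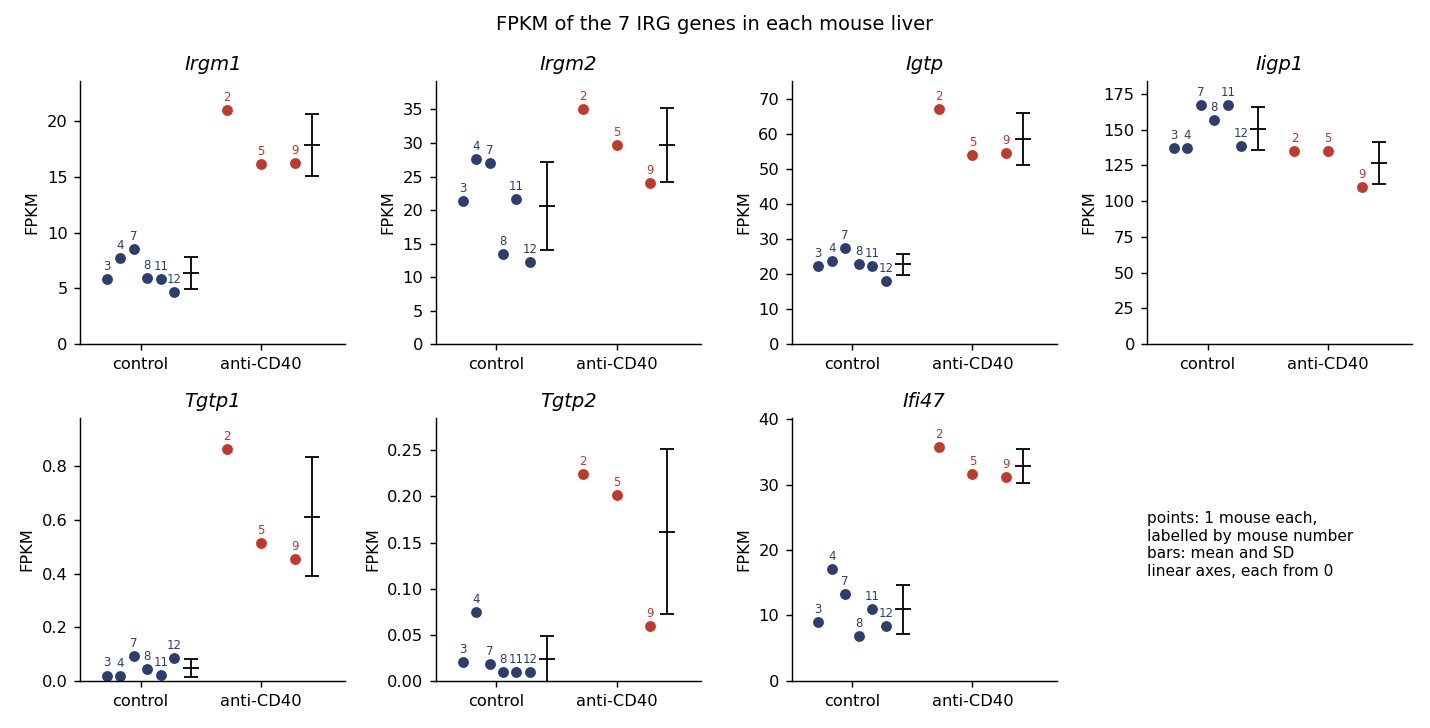
FPKM of each of the 7 IRG genes (y axes, linear, each from 0) in the 6 control mice and the 3 anti-CD40 mice (x axis), with 1 point per mouse labelled by mouse number and the mean and SD beside each group. For Irgm1, Igtp, Tgtp1 and Ifi47 the lowest anti-CD40 mouse lay above the highest control mouse, for Irgm2 and Tgtp2 the groups overlapped, and for Iigp1 the anti-CD40 mice lay below the controls.

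All members but Iigp1 lie on chromosome 11 of mm10. Irgm1, Tgtp1, Tgtp2 and Ifi47 fall within 270 kb (48865249 to 49135387), and Igtp and Irgm2 within 23.2 kb (58199556 to 58222783), 9.06 Mb away. GENCODE starts a transcript of Irgm2 inside Igtp, but none of the 50-base words at the 3′ ends of either gene occurs in another gene.

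Interferon signals reach such genes through short promoter elements. The interferon-stimulated response element was searched as GAAA, any 2 bases, GAAA, and the gamma-activated site, the element of the IFN-γ response, as TTCNNNGAA, on both strands of windows of 250 bases before to 50 bases after the start (RefSeq, GRCm38.p6). A match is only a match of letters. Of 32851 windows, 3.44% held the first, 8.30% the second and 0.454% both. A window was at hand for 6 members, all but Iigp1, of which 5 held the response element (all but Ifi47) and 4 held both (Igtp, Irgm2, Tgtp1 and Tgtp2). The stretches around the element are shown because they set the regulators beside each other and beside the Tgtp pair, with Gm12250, which encodes the effector Irgb10 and is classed as a processed pseudogene in the GENCODE release used, as another IRG gene. They are written 5′ to 3′ on the strand of the gene, with both kinds of element in capitals, and elements that overlap or adjoin form 1 run.
Irgm1, chr11:48871421-48871485, minus strand: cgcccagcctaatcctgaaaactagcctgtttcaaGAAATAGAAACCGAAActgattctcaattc
Irgm2, chr11:58214878-58214947, plus strand: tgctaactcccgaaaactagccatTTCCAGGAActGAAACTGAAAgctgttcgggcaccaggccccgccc
Igtp, chr11:58199487-58199555, plus strand: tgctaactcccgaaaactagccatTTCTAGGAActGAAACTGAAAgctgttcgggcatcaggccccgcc
Tgtp1, chr11:48992289-48992358, minus strand: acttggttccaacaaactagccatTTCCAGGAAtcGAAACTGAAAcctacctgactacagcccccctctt
Tgtp2, chr11:49064248-49064317, minus strand: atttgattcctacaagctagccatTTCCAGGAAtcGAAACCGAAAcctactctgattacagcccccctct
Gm12250, chr11:58183762-58183831, plus strand: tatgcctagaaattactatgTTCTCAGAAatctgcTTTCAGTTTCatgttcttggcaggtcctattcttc

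Over the first 45 bases shown, 44 were identical between Igtp and Irgm2 and 40 between Tgtp1 and Tgtp2, while Irgm2 and Tgtp1 shared 34. The stretch of Irgm1 has overlapping response elements and no gamma-activated site, and it matched that of Igtp at 16 of the 45 bases. In Gm12250 the response elements were found on the other strand. Of the chromosome 11 members tested, Irgm2 alone was not called. Its stretch is that of Igtp but for 1 base of the 45, and whether these elements act in the liver was not tested.

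Irgm1, a regulator also known for its part in autophagy and in the survival of blood stem cells under interferon, was at 21.01, 16.2 and 16.3 FPKM in anti-CD40 mice 2, 5 and 9. In the 6 control mice it ranged from 4.63 to 8.49 with a median of 5.89. Every anti-CD40 mouse lay above the highest control, mouse 7, as was so for 22.7% of all genes tested. Means were 17.8 ± 2.77 (SD, n = 3) and 6.40 ± 1.42 (SD, n = 6), a 2.79-fold rise (log2 fold change 1.48 ± 0.19 SE, limma adjusted p = 1.28e-04).

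Igtp, which encodes Irgm3, was at 67.1, 54.0 and 54.5 FPKM in the anti-CD40 mice. The control mice lay between 18.2 and 27.4 with a median of 22.7. Again no control mouse came near the anti-CD40 mice, and the spread within either group was small beside the distance between them. The means of 58.5 ± 7.45 (SD, n = 3) and 22.9 ± 2.96 (SD, n = 6) differed 2.56-fold (log2 fold change 1.36 ± 0.14 SE, limma adjusted p = 2.57e-05).

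Irgm2, which follows Igtp on the same strand, was at 35.1, 29.7 and 24.1 FPKM in the anti-CD40 mice. Its control values ran from 12.2 to 27.7 with a median of 21.5. Anti-CD40 mouse 9 lay below control mice 4 and 7, so the groups overlapped, although all 3 anti-CD40 mice were above the control median. Means were 29.7 ± 5.53 (SD, n = 3) and 20.6 ± 6.54 (SD, n = 6), and the log2 fold change of 0.58 (95% interval -0.030 to 1.18) did not pass the test (limma adjusted p = 0.111). The interval does not show that Irgm2 was unaltered. It passed under quantile normalization (0.77, adjusted p = 0.0412) and with the serum amyloid A genes Saa1, Saa2 and Saa3 left out and the mice rescaled (0.94, adjusted p = 0.0228). The latter setting raised the median of all genes to 0.35, and relative to that median Irgm2 stood at 0.59, against 0.57 without rescaling.

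Ifi47, the gene of the effector Irgd, was at 35.8, 31.6 and 31.1 FPKM in the anti-CD40 mice. In the control mice it lay between 6.82 and 17.2 with a median of 9.95. The anti-CD40 mice were close together and above every control mouse, among which mouse 4 was highest. Means were 32.8 ± 2.56 (SD, n = 3) and 10.9 ± 3.77 (SD, n = 6), a 3.13-fold rise (log2 fold change 1.64 ± 0.25 SE, limma adjusted p = 4.25e-04).

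Tgtp1 and Tgtp2 encode Irgb6 and are near-identical copies. In the GENCODE transcripts, 80.8% of the 50-base words from the last 500 bases of Tgtp1 and 100% of those of Tgtp2 also occur in another gene, so reads could be split between them. Tgtp1 was at 0.866, 0.515 and 0.455 FPKM in the anti-CD40 mice while the control mice ran from 0.0186 to 0.0925, median 0.0327. The steps between low values put these at 50, 28 and 23 reads after anti-CD40 and at 1 to 5 reads in a control mouse. The groups did not overlap, and the log2 fold change was 2.26 ± 0.27 SE (limma adjusted p = 8.16e-05), from 0.612 ± 0.222 (SD, n = 3) against 0.0470 ± 0.0340 (SD, n = 6). Its size depends on the pseudocount, from 0.61 with 1 to 3.61 with 0.01.

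Tgtp2 was at 0.225, 0.202 and 0.0591 FPKM in the anti-CD40 mice, which is 13, 11 and 3 reads. Of the control mice, 3 were at the table's floor of 0.01, and the highest, mouse 4, was at 0.0742 with 4 reads. Anti-CD40 mouse 9 lay below that mouse, so the groups overlapped (2-sided exact permutation p = 0.0476, n = 3 and 6). Without a filter on low values the log2 fold change was 1.03 ± 0.25 SE (limma adjusted p = 0.0202). Summed over both copies, the level was 0.774 ± 0.292 (SD, n = 3) against 0.0707 ± 0.0332 (SD, n = 6), with a log2 fold change of 2.33 ± 0.26 SE (limma adjusted p = 5.92e-05). The sum does not depend on how reads were divided between the 2 copies, but most of it is Tgtp1. It too passed the filter on low values only through the anti-CD40 mice. Of the 1146 words of Tgtp1, 113 also occur in Gm12185, which the sum leaves out.

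Iigp1, the gene of the effector Irga6, lies apart from the other members on chromosome 18 of mm10 (60376029 to 60392629). It was at 135, 135 and 110 FPKM in the anti-CD40 mice. The control mice lay between 137 and 168 with a median of 148. Every anti-CD40 mouse was below every control mouse, as in 19.6% of all genes tested, yet mice 2 and 5 came close to the lowest control, mouse 3. The means of 127 ± 14.8 (SD, n = 3) and 151 ± 14.9 (SD, n = 6) gave a log2 fold change of -0.25 (95% interval -0.52 to 0.02, limma adjusted p = 0.114), which did not pass the test. Its sign turned with the scaling: the log2 fold change was 0.16 under quantile normalization and 0.12 with the Saa genes left out, neither past the threshold. Relative to the median of all genes in each setting, Iigp1 stood at 0.26 under quantile normalization and at -0.23 with the Saa genes left out, where that median moved from 0.0056 to 0.35. Of its 50-base words, 0 occur in another gene.

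**Figure D2:**
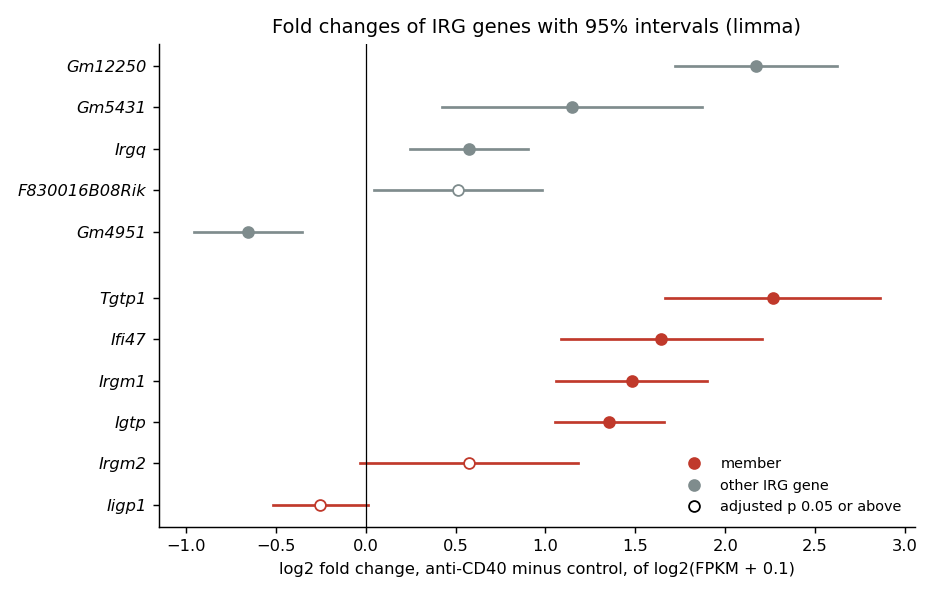
Log2 fold change of each tested IRG gene (x axis, anti-CD40 minus control on the log2(FPKM + 0.1) scale) with its 95% interval from limma, with members in red and other IRG genes in grey, and open points where the adjusted p was 0.05 or above. Irgm1, Igtp, Ifi47, Tgtp1, Gm12250, Gm5431 and Irgq lay to the right of 0 and Gm4951 to the left, while Irgm2, Iigp1 and F830016B08Rik were not called.

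The members did not move by the same amount. The ratio of a pair of members within a mouse, taken on FPKM + 0.1, was compared between groups for all 15 pairs of tested members. A scaling of the mouse nearly cancels in such a ratio, except in the 5 pairs with Tgtp1, where the added 0.1 outweighs the control level. The exact permutation test over the 84 splits of 9 mice cannot go below 0.0238. That p was reached by 10 pairs (Benjamini-Hochberg adjusted over the 15 pairs, 0.0357), whose groups did not overlap. They were 7 of the 10 pairs without Tgtp1 and 3 of the 5 with it, and included every pair with Iigp1. The 15 pairs reuse 6 genes, so these are not 10 separate results. Of all single genes tested, 22.7% lay higher and 19.6% lower without overlap. The share among pairs of all genes was not computed. The FPKM of Irgm2 divided by that of Igtp was 0.523, 0.551 and 0.442 in the anti-CD40 mice while the controls ran from 0.584 to 1.16, median 0.962. The log2 ratio of Irgm2 to Igtp was thus lower after anti-CD40, by a difference of -0.78 between the group means (exact permutation p = 0.0238, n = 3 and 6). The part of the promoter in this difference was not tested. Against Igtp, Irgm1 (difference 0.12, exact permutation p = 0.214) and Ifi47 (the log2 ratio of Igtp to Ifi47 differed by -0.29, exact permutation p = 0.286) were not told apart, whereas the log2 ratio of Igtp to Iigp1 rose by 1.61 (exact permutation p = 0.0238).

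**Figure D3:**
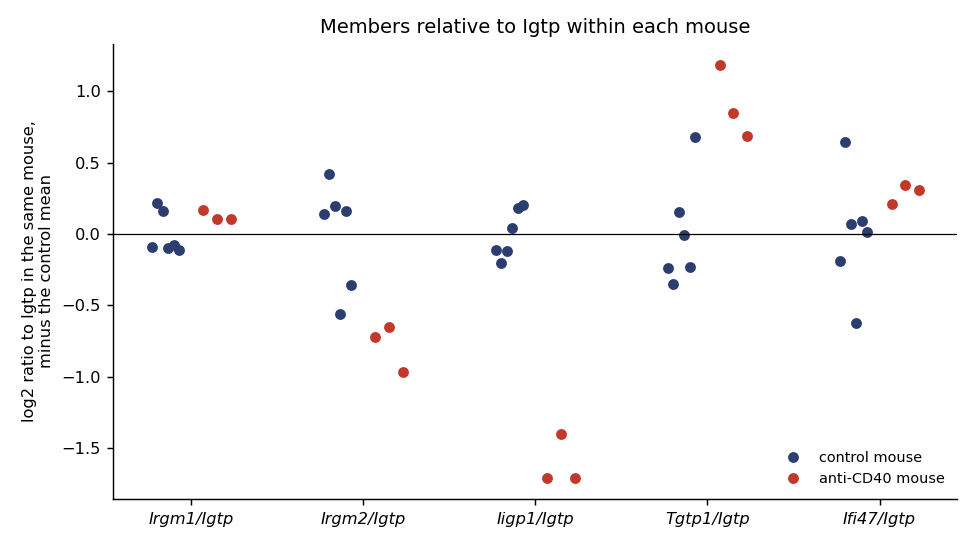
Log2 ratio of each member to Igtp in the same mouse, taken on FPKM + 0.1, with the control mean subtracted (y axis), for the 5 other tested members (x axis), with 1 point per mouse. For Iigp1 and Irgm2 the anti-CD40 mice lay below every control mouse, for Tgtp1 above every control mouse, and for Irgm1 and Ifi47 among them.

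Between mice of the same group, the members deviated together to differing degrees. After each group's mean was removed, the Pearson r of log2(FPKM + 0.1) over the 9 mice lay between -0.046 and 0.944 for the 15 pairs, with a median of 0.40. The 6 pairs among Irgm1, Irgm2, Igtp and Ifi47 lay between 0.507 and 0.944, highest for Irgm1 with Igtp, and the 5 pairs with Iigp1 between 0.034 and 0.492. These values describe mice that share a library between the genes compared. Anti-CD40 mouse 2 was the highest of its group in all 6 tested members, and it also had the deepest library, at 1.13 times the geometric mean of the 9 mice. Control mouse 7 was the highest of its group in 3 members and control mouse 12 the lowest in 3.

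Of the 8 other genes of the family or close to it that were listed, 5 were tested. Of these 5, 3 were called higher and 1 lower, against 23.5% and 21.7% of all genes tested. Gm5431, among those higher, passed the filter on low values only through the anti-CD40 mice. Gm12250, the gene of Irgb10, was at 4.24, 3.72 and 3.17 FPKM in the anti-CD40 mice and from 0.545 to 0.965 in controls, median 0.778. It rose 4.50-fold without overlap (log2 fold change 2.17 ± 0.20 SE, limma adjusted p = 1.64e-05), and of its 50-base words 0 occur in another gene. Gm5431, listed by RefSeq as Irgb9b8, rose from few reads (26, 13 and 10 against 1 to 10; log2 fold change 1.15, limma adjusted p = 0.0153), and without anti-CD40 mouse 2 it no longer passed (0.89, adjusted p = 0.0886). Irgq, a distant relative, rose (log2 fold change 0.57, limma adjusted p = 0.00915), except under quantile normalization (0.36, adjusted p = 0.0917). 9930111J21Rik2 was below the filter, with 11, 3 and 8 reads after anti-CD40 and 0 to 3 in a control mouse, and 9930111J21Rik1 and Irgc1 were at the floor in every mouse. Of the 1353 50-base words of 9930111J21Rik1, 1155 also occur in 9930111J21Rik2, so how reads were divided could set the level of either gene.

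The genes around Iigp1 on chromosome 18 went apart. RefSeq names Iigp1, Gm4951, Gm4841 and F830016B08Rik as a series (Ifgga1 to Ifgga4). Gm4951 was at 35.6, 34.6 and 33.1 FPKM in the anti-CD40 mice and from 44.2 to 64.3 in controls, median 55.2. It fell without overlap (log2 fold change -0.65 ± 0.14 SE, limma adjusted p = 0.00286), a call that was lost with the Saa genes left out and the mice rescaled (-0.29, adjusted p = 0.0891). Gm4841, which was not in the list and was found as a neighbour of Iigp1, was at 2.31, 2.22 and 2.46 FPKM against 0.201 to 0.975 with a median of 0.540, a 4.15-fold rise (log2 fold change 2.05 ± 0.35 SE, limma adjusted p = 8.08e-04). F830016B08Rik overlapped between the groups, at 1.89 ± 0.377 (SD, n = 3) against 1.31 ± 0.322 (SD, n = 6), with a log2 fold change of 0.51 (limma adjusted p = 0.0683), and it passed without control mouse 8 (0.61, adjusted p = 0.0240).

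Neighbours of the members, with the listed IRG genes left out, were called about as often as genes in general. Within 250 kb of a member lay 37 genes besides the members and the 8 other listed IRG genes. Of the 37, 22 were tested, 5 were called higher and 4 lower. Among those left out were Gm5431 (higher) beside Irgm1 and Gm12250 (higher) beside Igtp. Gm4951 (lower) and F830016B08Rik (not called) beside Iigp1 were left out too. Over all genes tested, 23.5% were called higher and 21.7% lower. The counts by cluster rest on 5 to 9 tested genes each. Beside the cluster of Irgm1, Tgtp1, Tgtp2 and Ifi47, 2 of 8 tested were higher and 0 lower. Olfr56, an olfactory receptor gene, was one of them, at 0.735 ± 0.228 FPKM (SD, n = 3) against 0.0474 ± 0.0312 (SD, n = 6), with a log2 fold change of 2.49 (limma adjusted p = 3.70e-05), and it too passed the filter only through the anti-CD40 mice. The table gives Olfr56, Olfr1396, Tgtp2 and Ifi47 a single shared position (49037660 to 49135387). Of the 1367 50-base words from the 3′ ends of Ifi47 transcripts, 62 occur in Olfr56. By contrast, 0 of the 519 words from the 3′ ends of Olfr56 occur in another gene. The value of Olfr56 and part of that of Ifi47 may hold the same reads, which was not tested. The other, Gnb2l1, overlapped between the groups, and its call was lost when any of 6 mice (anti-CD40 mice 2 and 9, control mice 3, 7, 11 and 12) was left out, with an adjusted p of up to 0.1805. Beside Igtp and Irgm2, 0 of 9 such neighbours were higher and 4 lower, not counting Gm12250, which rose. Of the 4, Mrpl22, a mitochondrial ribosomal protein gene, fell most (7.91 ± 1.16 SD FPKM in 3 mice against 14.996 ± 1.77 in 6, log2 fold change -0.92, limma adjusted p = 4.15e-04). The calls of Cnot8, Sh3bp5l and Zfp672 changed in 3, 8 and 10 alternatives. Beside Iigp1, 3 of 5 were higher, namely Smim3 (2.86), Gm4841 (2.05) and Synpo (1.38 on the log2 scale).

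**Figure D4:**
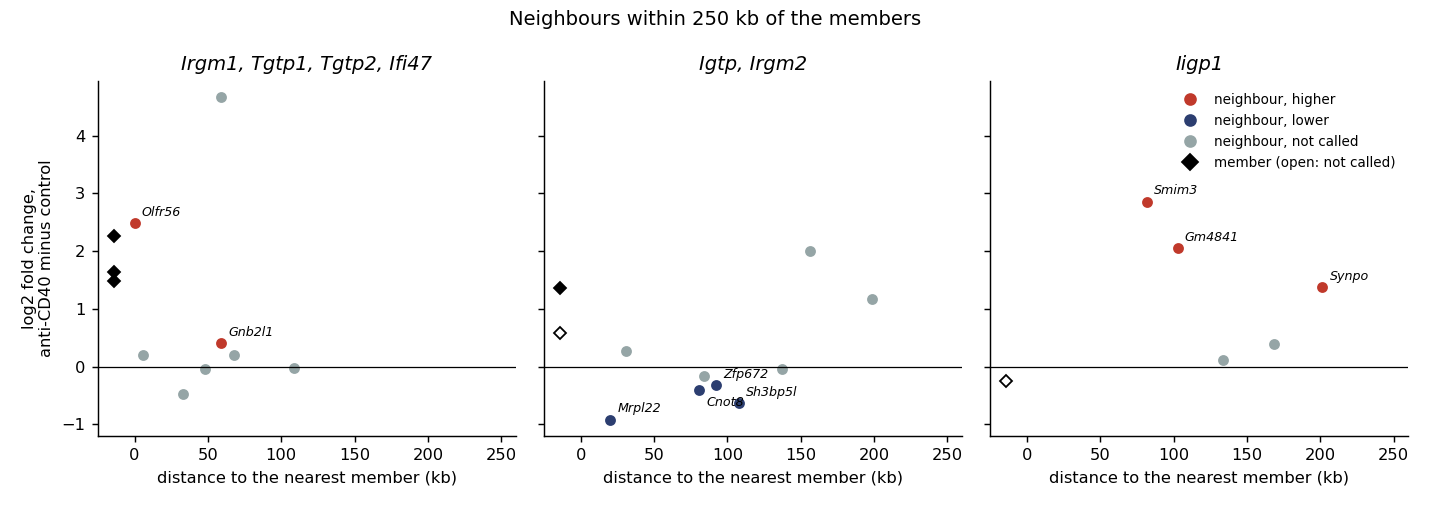
Log2 fold change (y axis) of the genes within 250 kb of a member against the distance to that member in kb (x axis), in 1 panel for each group of members, with red for called higher, blue for called lower, grey for not called, and diamonds at the left for the tested members (open where not called). The 8 other listed IRG genes are not drawn as neighbours. Mrpl22, Cnot8, Zfp672 and Sh3bp5l lay below 0 beside Igtp and Irgm2, and Smim3, Gm4841 and Synpo above 0 beside Iigp1, which itself was not called.

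IFN-γ acts through the receptor chains Ifngr1 and Ifngr2 and the kinases Jak1 and Jak2, and Irf1 is among the factors that induce IRG genes. Of the 15 genes of this pathway that were tested, 12 were called higher and 0 lower, with a median log2 fold change of 0.85. The shares over all genes tested were 23.5% higher and 21.7% lower. Over 20 alternatives the count higher in this list lay between 10 and 15. Ifngr2, the signalling chain, was at 15.001 ± 1.27 FPKM (SD, n = 3) against 5.55 ± 0.684 (SD, n = 6), a log2 fold change of 1.43 (limma adjusted p = 1.66e-05), and Ifngr1 rose by 0.84 and Jak2 by 0.85 on the same scale. The feedback inhibitors Socs1 (2.69) and Socs3 (2.50) rose most. Irf1 did not pass (log2 fold change 0.33, limma adjusted p = 0.179), nor did the phosphatase gene Ptpn11 and the SUMO ligase gene Pias1, and Irf1 passed in 3 alternatives. Ifng itself was below the filter, at 0.0503 ± 0.0432 FPKM (SD, n = 3) against 0.0806 ± 0.0717 (SD, n = 6), and its groups overlapped (exact permutation p = 0.524).

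Of the genes of type I interferon signalling, 11 were tested, 6 were higher and 2 lower. For this list and those below, 23.5% of all genes tested were higher and 21.7% lower. The count of falls in the type I list was thus near that of genes in general. Ifnar2, a receptor chain, rose by 1.18 on the log2 scale, and Tmem173, which encodes the DNA-sensing adaptor STING, rose by 2.53, while the RNA-sensing adaptor gene Mavs fell by 1.19 and Irf3, the factor that both adaptors switch on, by 1.02. Ifna4 was at the floor in every mouse and Ifnb1 was below the filter. The guanylate-binding proteins, the Mx proteins and other interferon-inducible GTPases are often made in the same cells as IRG proteins. Their list also held Dnm1l, a gene of mitochondrial fission rather than an interferon-inducible one. Of 14 tested, 12 were higher and 1 lower, with a median of 2.06. Gbp11 (3.28), Gbp2 (3.00) and Gbp5 (2.80 on the log2 scale) rose, Dnm1l was not called, and Gbp2b fell by 1.29, a call that was lost without anti-CD40 mouse 5 (adjusted p = 0.0529). Among classical interferon-stimulated genes, 17 of 18 were higher, with a median of 1.61, and Bst2 was not called (0.50, limma adjusted p = 0.141). Isg15, a ubiquitin-like protein, was at 793 ± 138 FPKM (SD, n = 3) against 214 ± 80.0 (SD, n = 6).

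IRG effectors find a vacuole with the help of the autophagy conjugation enzymes Atg5, Atg7, Atg3 and Atg16l1 and the small proteins LC3 and GABARAP that these attach to membranes. This list did not move with the members. Of 24 genes tested, 3 were higher and 5 lower, and the median was -0.063. Over all genes tested, 23.5% were higher and 21.7% lower, so the count of falls was near that of genes in general. Atg5 was at 17.4 ± 1.82 FPKM (SD, n = 3) against 35.4 ± 4.00 (SD, n = 6), a log2 fold change of -1.02 (limma adjusted p = 8.58e-05). Gabarapl1 (-1.67), Map1lc3a (-0.90), Atg7 (-0.83) and Atg3 (-0.80) also fell, and Atg3 was not called with the Saa genes left out. Those higher were Lgals3 (3.78), a galectin that binds sugars exposed on broken vacuoles, Uba7 (1.51), the activating enzyme for Isg15, and the ubiquitin ligase gene Trim25 (0.43), whose call was lost without any 1 of anti-CD40 mice 2, 5 and 9 and control mice 3, 7 and 8 (adjusted p up to 0.118). The count of genes higher in this list was 5 without control mouse 4, 8 under quantile normalization and 11 with the Saa genes left out. Of the enzymes that other arms of the IFN-γ response use, 7 of 9 tested were higher (of which Ido1 passed the filter only through the anti-CD40 mice), with Cybb (2.58), the oxidase subunit, and Tap1 (1.88), the peptide transporter, in front, while Ass1 (-1.49) and Gch1 (-1.35) were lower.

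**Figure D5:**
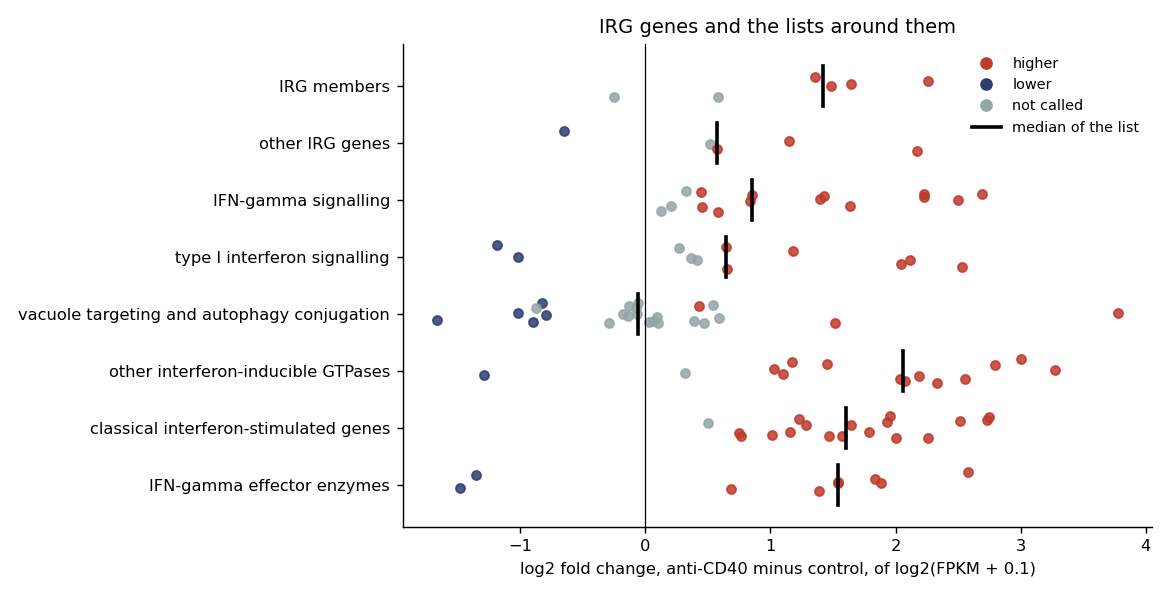
Log2 fold change (x axis) of each tested gene in the IRG members, the other IRG genes and 6 lists around them (y axis), with red for called higher, blue for called lower, grey for not called and a black line at each list's median. The medians of the GTPase, interferon-stimulated and effector enzyme lists lay between 1.54 and 2.06 near that of the IRG members at 1.42, and that of the vacuole targeting and autophagy list at -0.063.

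Outside these lists, the genes whose level over the 9 mice was most like the mean of the members' standardized values were Safb (Pearson r = 0.981), Trim12a (0.978), Fubp1 (0.977), Nol4l (0.977), Dnm3os (0.976), Cd200r1 (0.976), Ric8 (0.975) and Ccl3 (0.972). Among the members, r with that mean was 0.967 for Irgm1, 0.948 for Igtp, 0.936 for Ifi47, 0.877 for Tgtp1 and 0.853 for Irgm2, but -0.335 for Iigp1. Every tested member is itself part of that mean, which raises its r. Each r holds the difference between the groups as well as that between mice.

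Marker transcripts of the cell types of the liver differed after the treatment, where 23.5% of all genes tested were called higher and 21.7% lower. Of the markers tested, 8 of 8 for Kupffer cells were lower (summed FPKM 40.6 to 52.9 after anti-CD40, 295 to 470.1 in controls), and 8 of 10 for monocytes and recruited macrophages were higher (334 to 453 against 43.5 to 79.0). All 9 neutrophil markers tested (4230 to 5220 against 19.2 to 157), 7 of 8 for T cells (12.5 to 14.4 against 2.99 to 5.24), 7 of 7 for NK cells (67.9 to 95.9 against 3.8999 to 13.6) and 5 of 5 for B cells (26.0 to 36.8 against 1.60 to 6.85) were higher. These counts are in part fixed by the filter, which 4 of the neutrophil markers (Mmp8, Ngp, Ltf and Cxcr2), Cd8a of the T cell, Eomes of the NK cell and Cd79a of the B cell markers passed only through the anti-CD40 mice, and Cd163 of the Kupffer cell markers only through the control mice. Of 9 hepatocyte markers 6 were lower and 2 higher (8882 to 10134 against 15318 to 27314), while sinusoidal endothelium had 3 higher and 3 lower of 8 and stellate cells 3 higher and 2 lower of 8. The hepatocyte markers were above the floor in every mouse, in keeping with the tissue label. The part of these cells in the IRG differences was not tested, and in bulk tissue fewer cells of a type and less RNA per cell cannot be told apart. The depth of a library relative to the others lay between 0.870 and 1.13, its absolute value is unknown, and Saa1, Saa2 and Saa3 made up 25.4% to 25.9% of the summed FPKM after anti-CD40 and at most 0.380% in controls.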

How the data were processed

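Liver mRNA of 9 mice was analysed, 3 given anti-CD40 and 6 PBS, grouped by the sample labels. Per the methods and processing notes, the authors made 3′ libraries (QuantSeq FWD), aligned the reads to mm10 with STAR and ran Cufflinks and CuffDiff; versions are not repeated here, and the annotation and strand setting are not given in the sources used here. They deposited FPKM values, 1 per gene and mouse, with a floor of 0.01; a failed estimate in any mouse removed 15 of 24341 genes. Table starts were taken as counted from 0 and raised by 1.

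To the deposited FPKM 0.1 was added before log2 was taken, and genes averaging below 0.1 were left out. The remaining 13807 were fitted by limma 3.58.1 (R 4.3.3; lmFit and eBayes, trend on), 2-sided, Benjamini-Hochberg adjusted over all of them, with a threshold of 0.05. For single values the mice were permuted over all 84 splits (exact, 2-sided). On simulated data of 13807 genes, 82% of 200 changed genes were recovered, with 9 false calls. The changes were of 1 or 2 on the log2 scale, in genes not low in the controls. Of the changes of 1, 69.1% were recovered. Smaller changes and changes of low genes were not simulated. Whole reads were read from the steps of low values, taking the smallest whole numbers that fitted. Of 1313 low genes, 96.6% were whole within 0.04 of a read, a tolerance widened by the square root of the reads. These reads cover low genes, so no count test was run. Python 3.11.15, numpy 2.4.6, pandas 2.3.3 and matplotlib 3.10.9 did the rest.

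The members and gene lists were chosen with earlier results of these data known. A gene of the IFN-γ list that is counted in it is not reported here. Named were all members, the other IRG genes, called neighbours, from each list up to 6 leading genes and the 2 largest rises and falls, counts of 5 or fewer in full, and the 8 genes most alike; Gm4841 as a family gene was singled out after its values were seen. Each numbered library was taken as 1 mouse, which the labels do not state, so p-values measure the spread between these libraries. Alternatives were other pseudocounts, filters, scalings, eBayes settings and thresholds, array weights, the Tgtp copies summed, and each mouse left out. The ratio of members and the list counts under alternatives were added after seeing the data. Sequences are from RefSeq (GRCm38.p6); 3′ words were compared in GENCODE vM21 transcripts.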

Additional observations from a re-analysis of the deposited data

Results flagged for a closer look

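Among 13 IRG genes above the floor, 1 had a control mouse set apart from the others. For Tgtp2, control mouse 4, at 0.0742 FPKM and 4 reads, was separated from the next control mouse by 0.843 of the range of the 6 control mice, above Dixon's 95% critical value for a group of 6. With 13 genes examined, chance alone gives about 0.65 such genes, and the other control mice had 0 or 1 read.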

How the results depend on the processing

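Over 22 alternatives the count of members called higher lay between 3, where a mean FPKM of at least 1 left 5 members tested, and 5, and it was 4 each time a mouse was left out. The median log2 fold change of the members moved to 0.97 with a pseudocount of 1 and to 1.78 with the Saa genes left out and rescaled, a setting that moved the median of all genes to 0.35. Iigp1 turned to 0.16 under quantile normalization and to 0.12 with the Saa genes left out, and Zfp672 to 0.050 under the latter. Irgm1, Igtp, Ifi47, Tgtp1 and Gm12250 passed in every alternative in which they were tested. Of the other IRG genes, 1 was higher under quantile normalization, and 0 were lower with the Saa genes left out. In the vacuole and autophagy list the count higher was 8 under quantile normalization, 11 with the Saa genes left out, 5 with array weights and between 2 and 5 as single mice were left out. Of the other GTPases, 0 were lower without a filter, with a mean FPKM of at least 1 or without anti-CD40 mouse 5, and otherwise 1. Over all genes, 3240 were called higher and 2990 lower, against 2969 and 3424 under quantile normalization, 3254 and 2968 under median of ratios scaling, 2182 and 2703 with a mean FPKM of at least 1, and 5635 and 1647 with the Saa genes left out. Depth limits Tgtp1, Tgtp2, Gm5431 and 9930111J21Rik2, which rest on few reads. No paired analysis was possible because every mouse has its own number and the groups share none.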
